A study of Rattus norvegicus with 7 samples.

Results

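The genes described here encode the proteins that fold, oxidize and dispose of secretory proteins in the endoplasmic reticulum (ER). At 12 h of sodium fluoride (NaF), 34 of the 42 such genes that could be tested were called higher than in vehicle (81.0%) and 0 lower, where 26.8% of all tested probe sets were called higher and 29.5% lower. The largest changes at 12 h were in the degradation component Herpud1 (8.15-fold), the oxidase Ero1b (7.47-fold) and Creld2 (6.60-fold), grouped here with lumenal chaperones. At 3 h 0 of the 42 genes were called in either direction (2.1% of all tested probe sets higher and 4.7% lower). At 6 h 6 were called higher (14.3%), a share near the 14.6% of all tested probe sets.

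The genes came from a list of 45 symbols and were taken from every probe set whose annotation held exactly 1 of these symbols. Vimp and Selenos are names of 1 gene, and Derl3 was not analysed here. This left 43 genes with 66 probe sets, of 14218 genes and 31099 probe sets on the array: 17 lumenal chaperones, 10 disulfide isomerases and oxidases, and 16 degradation components. Where a gene had several probe sets, it is described by the one with the highest mean signal. Edem3, with a mean log2 signal of 3.74, was below the minimum of 6 set for tests. The other 42 genes were above it in the mean of the vehicle arrays alone, so that none was tested only because NaF raised it.

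ROE2 is an immortalized epithelial line from the tongue of fetal Wistar rats with a transgene for temperature-sensitive SV40 large T-antigen, and every array of the study is from this line. The cells were incubated with 2 mM NaF for 3, 6 or 12 h, or with vehicle (sterilized water) for 3, 6 or 12 h, in low-serum medium. A further vehicle array is labelled only as control and stands for 0 h in the study's methods. Each of these 7 conditions was measured on 1 Affymetrix rat array with RNA pooled from 3 experiments, so that no condition had a replicate array. Below, a change is the log2 signal of NaF minus that of vehicle of the same time, and a fold is that change on a linear scale. A gene was called when its NaF array differed from the mean of the 4 vehicle arrays at an adjusted p under 0.05 (limma, Benjamini-Hochberg over 13497 probe sets). Such a p measures only the spread among the vehicle arrays, which come from different times, and takes the NaF array to vary as they do.

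Proteins that enter the ER are bound by the Hsp70 chaperone Hspa5 (BiP) and its cochaperones, or, once glycosylated, by the lectins calnexin and calreticulin. Disulfide isomerases pair their cysteines, and are themselves reoxidized by Ero1 enzymes. Proteins that fail to fold are passed to a ubiquitin ligase complex in the membrane, extracted by the ATPase Vcp and degraded by the proteasome, a route named ER-associated degradation (ERAD). When unfolded protein accumulates, the sensors Ern1 (IRE1), Eif2ak3 (PERK) and Atf6 start the unfolded protein response. Atf6 and Xbp1 act on many chaperone genes through ER stress elements in their promoters.

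The promoters of the genes, from 250 bases before to 50 bases after the gene start (RefSeq, GRCr8), were searched on both strands for these elements. The ER stress element was taken as CCAAT and CCACG separated by any 9 bases, and the second ER stress element as ATTGG and CCACG separated by any 1 base. Of the 43 genes, 36 had a promoter in this set. The ER stress element was in 22 of 33469 promoters (0.0657%) and among them in those of 7 of the genes. The second element was in 17 promoters (0.0508%), among them those of Hyou1, Dnajb11 and Herpud1. The windows below are of elements that lie wholly before the gene start, and are shown because Herpud1, Ero1b and Creld2 are among their genes, each with 10 bases on either side, 5′ to 3′ on the strand that carries the element, and with the element's fixed bases in capitals.
Hspa5, chr3:38452963-38453001, plus strand: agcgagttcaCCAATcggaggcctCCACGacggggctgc
Hsp90b1 upstream copy, chr7:23012441-23012479, minus strand: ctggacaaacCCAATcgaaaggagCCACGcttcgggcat
Hsp90b1 downstream copy, chr7:23012337-23012375, plus strand: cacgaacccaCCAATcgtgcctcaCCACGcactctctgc
Creld2, chr7:121789229-121789267, minus strand: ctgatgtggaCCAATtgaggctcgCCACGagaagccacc
Dnajc3, chr15:102432524-102432562, plus strand: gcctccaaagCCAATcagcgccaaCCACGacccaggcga
Ero1b, chr17:92941448-92941486, minus strand: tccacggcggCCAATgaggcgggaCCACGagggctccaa
Calr, chr19:40213125-40213163, minus strand: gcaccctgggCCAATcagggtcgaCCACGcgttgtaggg
Herpud1, chr19:10614811-10614841, minus strand: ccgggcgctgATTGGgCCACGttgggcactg
Hyou1 upstream copy, chr8:53602684-53602714, minus strand: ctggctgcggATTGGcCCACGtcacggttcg
Hyou1 downstream copy, chr8:53602784-53602814, minus strand: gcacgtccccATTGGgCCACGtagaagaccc

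In the Hspa5 promoter the element lay closest to the gene start among these windows, at bases -43 to -25, whereas that of Calr lay at bases -232 to -214. Hsp90b1 and Hyou1 each held a pair of elements. Hyou1 was the 1 gene with over 1 promoter in the set, and only 1 of its promoters held elements. The element of Dnajb11 ran from base -10 to base 1 and so reached the gene start. The core of the unfolded protein response element, TGACGTGG, was in 199 promoters (0.595%), among them those of Dnajc10, Vcp and Hyou1, and the copy in Hyou1 overlapped its upstream second element.

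**Figure D1:**
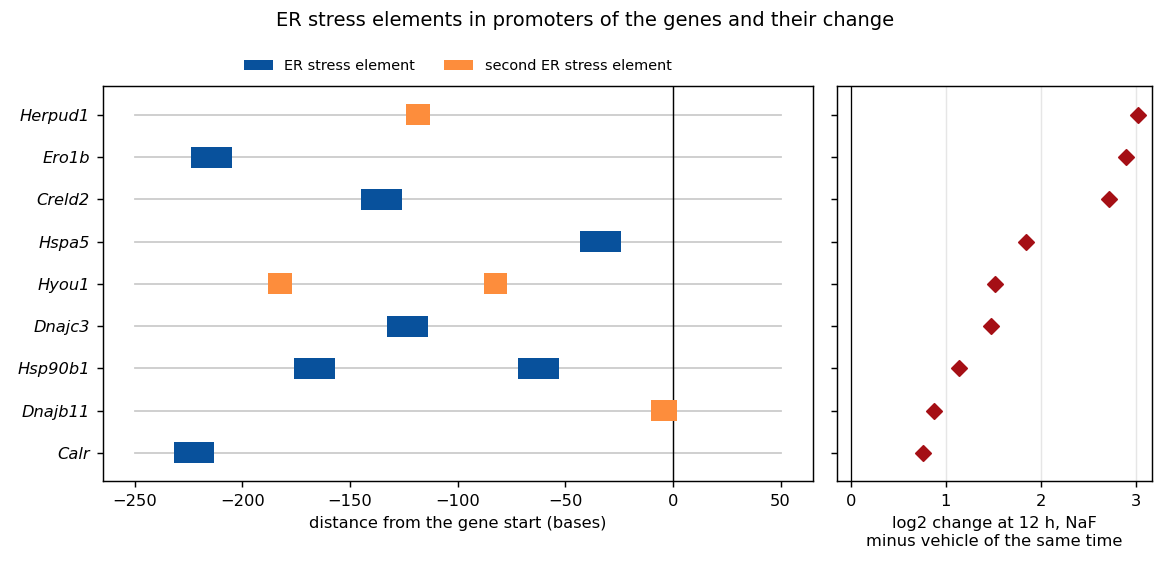
Left, position of the ER stress element and the second ER stress element in the promoters of 9 of the 10 genes that held either, as distance in bases from the gene start, with a grey line for the window searched. Right, change of the same genes at 12 h on the log2 scale (NaF minus vehicle of the same time), which ran from 0.75 for Calr to 3.03 for Herpud1.

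The 10 genes with an ER stress element of either kind were all called higher at 12 h, with a median change of 1.50 and a range from 0.37 to 3.03, and 7 of them were at least 2-fold higher. The 25 tested genes whose promoter held neither had a median change of 0.43 and a range from -0.21 to 2.15, with 19 called higher and 7 at least 2-fold higher. Of all 42 tested genes, 81.0% were called higher at 12 h. Of all tested probe sets, 26.8% were called higher and 4.53% were at least 2-fold higher. The ranges overlapped widely: Dnajb9 changed by 2.15 and Sdf2l1 by 2.09 with no match of these letters in the window. The promoters without a match and the 7 genes without a promoter in the set say nothing about the factors, and the difference between the groups was not tested.

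**Figure D2:**
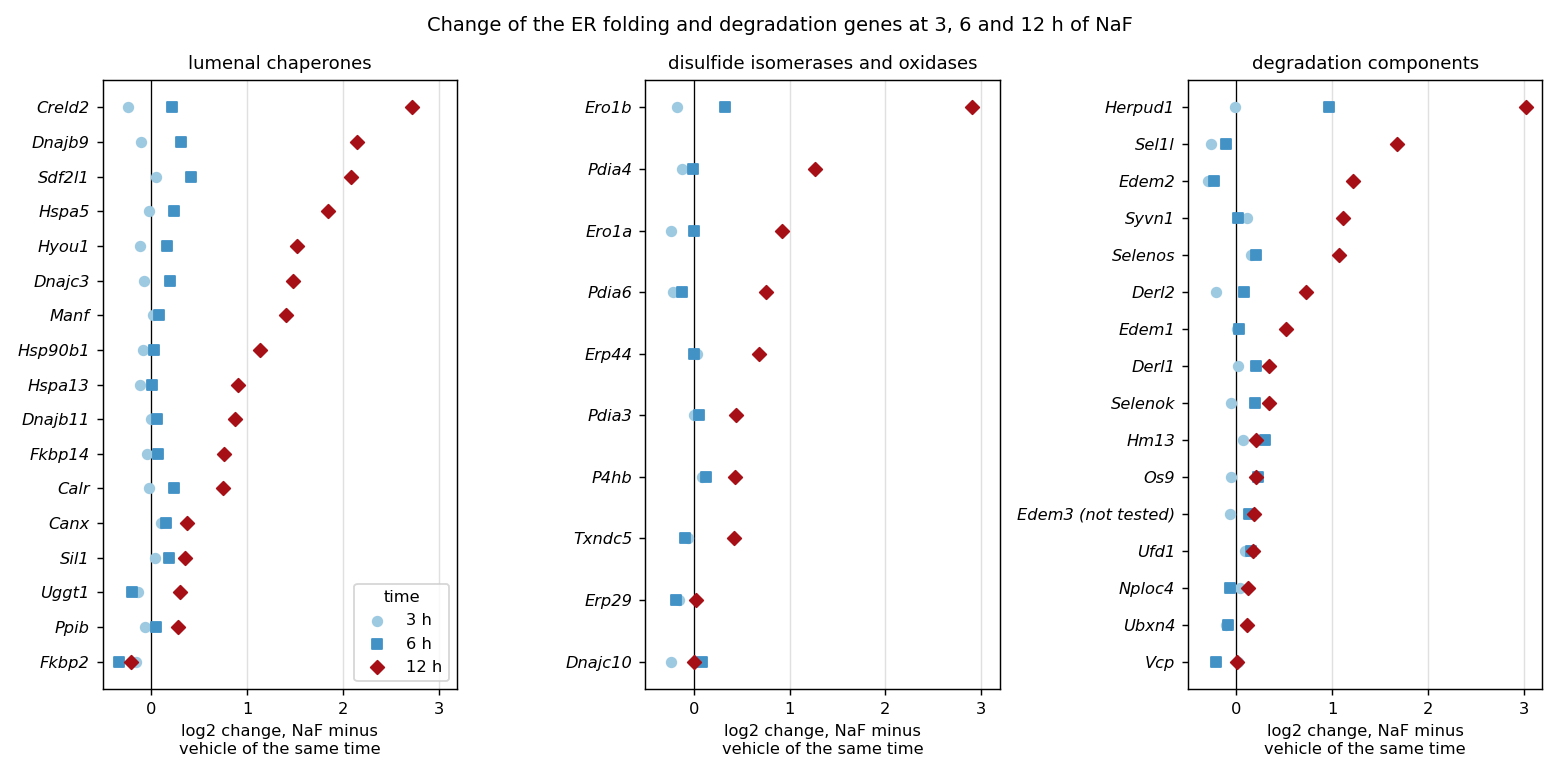
Change of each of the 43 genes on the log2 scale (NaF minus vehicle of the same time) at 3, 6 and 12 h, by class and ordered by the change at 12 h. Most circles (3 h) and squares (6 h) lie near 0, and the diamonds (12 h) reach 3.03 for Herpud1, 2.90 for Ero1b and 2.72 for Creld2.

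The lumenal chaperones were the class with the largest share called at 12 h: 16 of 17 were called higher (94.1%, against 26.8% of all tested probe sets). Their median change was 0.91, with a range from -0.21 to 2.72. Within it, all 10 genes grouped here as the Hsp70 system, Creld2 among them, were called higher, with a median change of 1.50. Hspa5, the Hsp70 chaperone of the ER lumen, had log2 signals of 12.06, 12.52 and 13.70 at 3, 6 and 12 h of NaF, against 12.08, 12.28 and 11.85 at 3, 6 and 12 h of vehicle and 11.87 in the vehicle control. The 12 h NaF array stood above all the vehicle arrays and was 3.60-fold higher than vehicle of the same time (limma estimate 1.68, SE 0.18, adjusted p = 0.00099).

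Creld2, a secreted glycoprotein with epidermal growth factor-like repeats, had log2 signals of 9.33, 10.01 and 12.07 at 3, 6 and 12 h of NaF, against 9.57, 9.79 and 9.34 in vehicle and 9.50 in the vehicle control (adjusted p at 12 h = 0.00035). Its 3 h NaF array was the lowest of the 7 and its 12 h NaF array the highest. Dnajb9 (ERdj4), a J-domain cochaperone that hands misfolded clients to Hspa5, had 9.10, 9.57 and 11.26 in NaF, against 9.21, 9.26 and 9.12 in vehicle and 8.95 in the vehicle control. Sdf2l1, a partner of the cochaperone Dnajb11, had 9.12, 9.65 and 11.12 in NaF, against 9.07, 9.24 and 9.04 in vehicle and 8.99 in the vehicle control. Both genes were above every vehicle array at 6 h and 12 h of NaF and were called at both times (Dnajb9 adjusted p = 0.045 at 6 h and 0.00032 at 12 h, Sdf2l1 0.011 and 0.00028). The 6 h call of Dnajb9 was lost under 4 alternatives (adjusted p = 0.066 to 0.12), that of Sdf2l1 under none.

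The remaining genes of the Hsp70 system had smaller changes. Hyou1 (GRP170), a nucleotide exchange factor of Hspa5, had log2 signals of 6.41, 6.78 and 8.01 in NaF, against 6.53, 6.62 and 6.49 in vehicle and 6.57 in the vehicle control. Its 3 h NaF array was the lowest of the 7 and its 12 h NaF array 2.87-fold higher than vehicle, and Sil1, the other exchange factor, was 1.28-fold higher. The cochaperone Dnajc3 (p58IPK) had 9.61, 9.84 and 10.99 in NaF, against 9.68, 9.65 and 9.51 in vehicle and 9.62 in the vehicle control, 2.78-fold higher at 12 h. Dnajb11 (ERdj3), which delivers unfolded chains to Hspa5, was 1.84-fold higher. Manf, a secreted protein that binds Hspa5, had 10.87, 11.19 and 12.29 in NaF, against 10.85, 11.11 and 10.88 in vehicle and 10.82 in the vehicle control, 2.66-fold higher at 12 h. Hspa13, a shortened relative of Hspa5, was 1.88-fold higher, and all of these genes were called. Hsp90b1 (GRP94), the Hsp90 of the ER, had log2 signals of 12.02, 12.35 and 13.33 in NaF, against 12.10, 12.33 and 12.19 in vehicle and 12.18 in the vehicle control, and was 2.20-fold higher at 12 h (adjusted p = 0.0006).

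All 3 genes of the lectin cycle were called higher at 12 h (26.8% of all tested probe sets were), with a median change of 0.37. Calreticulin (Calr), the soluble lectin, was 1.69-fold higher and was called at 6 h as well (adjusted p = 0.042), a call lost under 3 alternatives (adjusted p = 0.093 to 0.1). Calnexin (Canx), the membrane-bound lectin, was 1.30-fold higher with adjusted p = 0.021. Uggt1, the enzyme that marks unfolded glycoproteins for another round, was 1.23-fold higher with adjusted p = 0.044. The calls of Canx and Uggt1 did not hold under every alternative setting.

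Of the prolyl isomerases, which turn proline bonds during folding, Fkbp14 was 1.69-fold and Ppib (cyclophilin B) 1.21-fold higher at 12 h, and both were called. Fkbp2 was the 1 lumenal chaperone that was not called. It had log2 signals of 9.98, 9.85 and 10.08 in NaF, against 10.15, 10.19 and 10.29 in vehicle and 9.98 in the vehicle control. Each NaF array of Fkbp2 was below the vehicle array of its time, and the 12 h array was within the vehicle range (limma estimate -0.07, SE 0.12, adjusted p = 0.65).

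**Figure D3:**
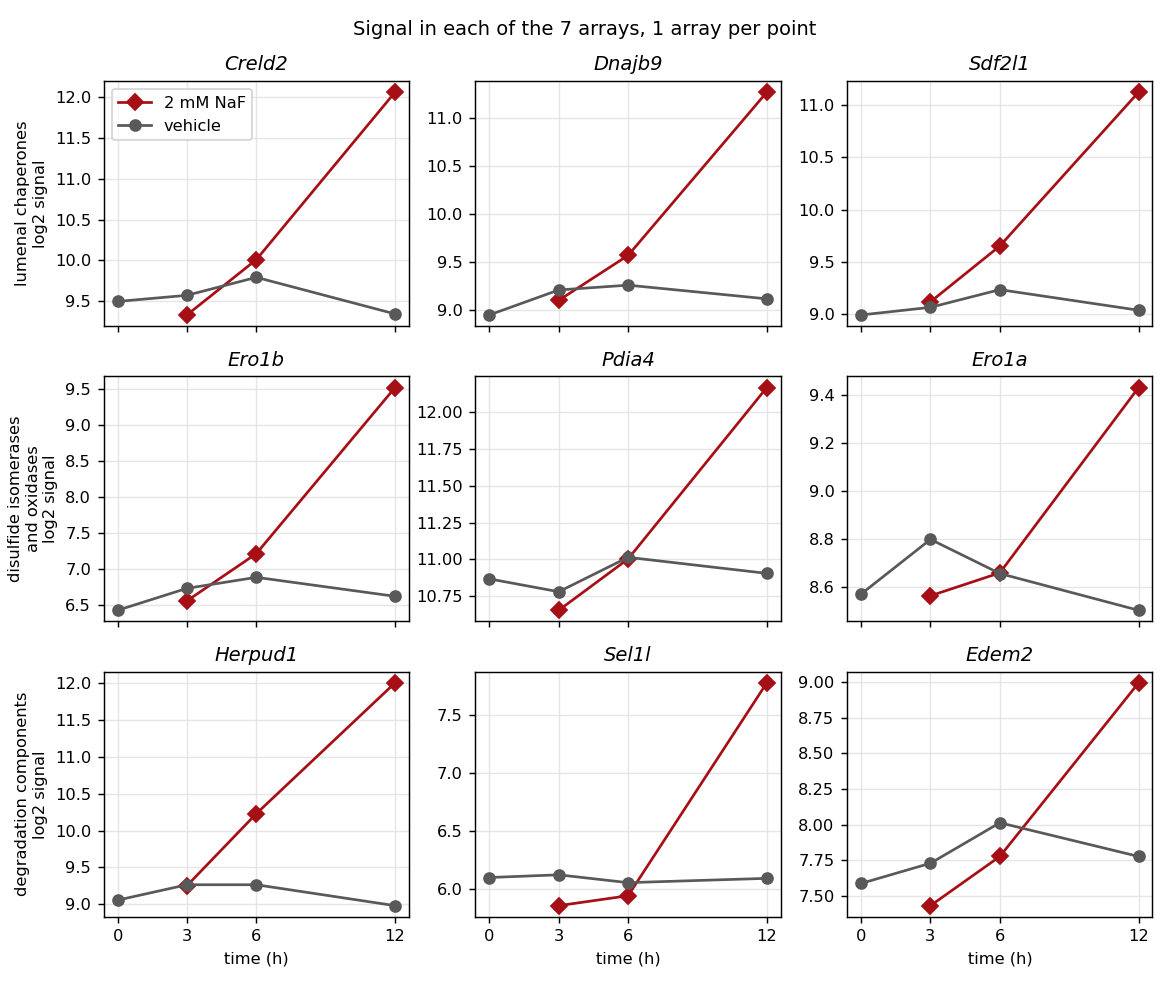
Log2 signal in each of the 7 arrays for the 3 genes of each class with the largest change at 12 h, with NaF (2 mM) as diamonds and vehicle as circles, 1 array per point, the vehicle control drawn at 0 h, and a y axis of its own for each gene. The 12 h NaF array is the highest of the 7 in all 9 panels, and the vehicle arrays lie within 0.46 of each other.

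Of the disulfide isomerases and oxidases, 8 of 10 were called higher at 12 h (80%, against 26.8% of all tested probe sets). Their median change was 0.56, with a range from 0.00 to 2.90. Ero1b, an oxidase that reoxidizes disulfide isomerases, had log2 signals of 6.56, 7.21 and 9.52 at 3, 6 and 12 h of NaF, against 6.73, 6.88 and 6.62 in vehicle and 6.43 in the vehicle control. It was 7.47-fold higher at 12 h (limma estimate 2.86, SE 0.17, adjusted p = 0.00032) and had not been called at 6 h (estimate 0.55, adjusted p = 0.054). A second probe set of Ero1b was too dim to be tested, with a vehicle mean of 2.49 and a change of -0.01 at 12 h. This was the only gene, of 16 with several probe sets, whose probe sets differed by over 1 in this change.

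Ero1a, the related oxidase, had log2 signals of 8.56, 8.66 and 9.43 in NaF, against 8.80, 8.66 and 8.50 in vehicle and 8.57 in the vehicle control. It stood above all vehicle arrays only at 12 h, where it was 1.90-fold higher (adjusted p = 0.0031). Pdia4 (ERp72) had 10.65, 11.00 and 12.17 in NaF, against 10.78, 11.01 and 10.91 in vehicle and 10.87 in the vehicle control, and was the most changed isomerase at 2.40-fold (adjusted p = 0.00048). Pdia6, which also acts on the sensors of the unfolded protein response, was 1.69-fold higher, and Erp44, which retains Ero1 enzymes in the secretory pathway, 1.60-fold higher.

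The isomerases P4hb, Pdia3 and Txndc5 were called with smaller changes, of 1.35-fold, 1.35-fold and 1.34-fold. P4hb is the classical protein disulfide isomerase, and Pdia3 (ERp57) works with the calnexin and calreticulin lectins. For P4hb, the log2 signals were 12.78, 12.84 and 13.19 in NaF, against 12.69, 12.72 and 12.76 in vehicle and 12.58 in the vehicle control. The 12 h NaF array of P4hb thus exceeded the highest vehicle array by more than the vehicle arrays differed among themselves.

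Dnajc10 and Erp29 were not called at 12 h. Dnajc10 (ERdj5), a reductase that opens disulfides of proteins bound for degradation, had log2 signals of 9.60, 9.93 and 9.84 in NaF, against 9.84, 9.84 and 9.84 in vehicle and 9.85 in the vehicle control. Its NaF arrays were below all vehicle arrays at 3 h, above them at 6 h and among them at 12 h (adjusted p = 0.077, 0.31 and 0.99). Erp29, which has the fold of the isomerases without their paired active-site cysteines, had a change of 0.02 at 12 h (adjusted p = 0.42).

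Of the degradation components, 10 of 15 tested were called higher at 12 h (66.7%, against 26.8% of all tested probe sets). Their median change was 0.34, with a range from 0.01 to 3.03. The 5 genes of the membrane ligase complex were all called, with a median change of 1.11. Herpud1, a membrane protein with a ubiquitin-like domain that joins this complex, had log2 signals of 9.25, 10.23 and 12.01 at 3, 6 and 12 h of NaF, against 9.27, 9.27 and 8.98 in vehicle and 9.06 in the vehicle control. It was the most changed of the 43 genes at 12 h (limma estimate 2.87, SE 0.13, adjusted p = 0.00027). It also had the largest change at 6 h, of 0.97 (1.95-fold, adjusted p = 0.0033).

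Sel1l, the adaptor of the ligase, had log2 signals of 5.86, 5.95 and 7.78 in NaF, against 6.13, 6.06 and 6.10 in vehicle and 6.10 in the vehicle control. The 3 h and 6 h NaF arrays of Sel1l were thus the lowest of the 7, without a call at either time (adjusted p = 0.094 and 0.12), and the 12 h array was 3.20-fold higher than vehicle (adjusted p = 0.00027). Syvn1 (Hrd1), the ubiquitin ligase itself, had 8.82, 8.90 and 9.83 in NaF, against 8.71, 8.88 and 8.72 in vehicle and 8.61 in the vehicle control, and was 2.16-fold higher at 12 h. Derl2 and Derl1, membrane proteins of the exit channel, were 1.65-fold and 1.27-fold higher. All 3 probe sets of Derl1 and both of Derl2 were called, but the call of Derl1 was lost without the filter on dim probe sets (adjusted p = 0.062) and without the 3 h vehicle array (adjusted p = 0.058).

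Edem2, which trims mannose from misfolded glycoproteins, had log2 signals of 7.43, 7.78 and 8.99 in NaF, against 7.73, 8.01 and 7.78 in vehicle and 7.59 in the vehicle control. Its 3 h NaF array was the lowest of the 7 and its 12 h NaF array 2.32-fold higher than vehicle (adjusted p = 0.0018). Its relative Edem1 was 1.43-fold higher, with adjusted p = 0.005, and the untested Edem3 had a change of 0.18. Os9, a lectin that reads the trimmed glycans, had a change of 0.20 without a call (adjusted p = 0.061). A dimmer probe set of Os9 was called, with a change of 0.53.

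The selenoproteins of the retrotranslocation site were both called at 12 h, Selenos at 2.11-fold and Selenok at 1.26-fold. Selenos, which recruits Vcp to the membrane, had log2 signals of 11.06, 11.22 and 11.97 in NaF, against 10.91, 11.02 and 10.89 in vehicle and 10.96 in the vehicle control. Each of its NaF arrays was above all vehicle arrays, with a call at 6 h (adjusted p = 0.036) and at 12 h (adjusted p = 0.00043). The 6 h call was lost under 5 alternatives (adjusted p = 0.058 to 0.089). Hm13, the signal peptide peptidase, was the 1 gene called at 6 h and not at 12 h. It had log2 signals of 10.16, 10.38 and 10.19 in NaF, against 10.09, 10.08 and 9.99 in vehicle and 10.09 in the vehicle control (adjusted p = 0.021 at 6 h and 0.16 at 12 h). Its 6 h call was lost under 2 alternatives (adjusted p = 0.057 and 0.064). The highest array of Hm13 was thus the 6 h NaF array, though all 3 NaF arrays exceeded every vehicle array.

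The cytosolic extraction machinery had a median change of 0.12 at 12 h, with 1 of 4 genes called (25%, near the 26.8% of all tested probe sets). Vcp (p97), the ATPase that pulls proteins out of the membrane, had log2 signals of 12.00, 11.95 and 12.16 in NaF, against 11.98, 12.16 and 12.15 in vehicle and 12.16 in the vehicle control. The 12 h signal in NaF was within 0.01 of vehicle of the same time (1.01-fold; limma estimate 0.05, SE 0.09, adjusted p = 0.69). Of its cofactors, Ufd1 was called with a change of 0.18 (adjusted p = 0.047), a call lost under 5 alternatives (adjusted p = 0.073 to 0.11), and Nploc4 with 0.12 was not called (adjusted p = 0.23). Ubxn4, which tethers Vcp to the ER membrane, had a change of 0.11 (adjusted p = 0.1), with another of its 3 probe sets called at 0.50.

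Over all 60 tested probe sets of the 42 tested genes, 44 were called higher at 12 h and 0 lower (26.8% and 29.5% of all). Among the 44 was a second probe set of Ero1a with a vehicle mean of 5.95, below the minimum of 6. It was tested only because its 12 h NaF signal of 6.62 brought its mean over the 7 arrays to 6.04. All 3 probe sets of Canx were called, with changes of 0.37, 0.56 and 0.79, and all 3 of Fkbp2 had changes below 0, of -0.21, -0.15 and -0.13, without a call. Of the 3 probe sets of Erp44, those with changes of 0.68 and 0.54 were called and the dimmest, with -0.08, was not. At 6 h this dimmest probe set of Erp44 was called lower, with a change of -1.04 (limma adjusted p = 0.024). It was then below all vehicle arrays, and 19.9% of all tested probe sets were called lower at 6 h.

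**Figure D4:**
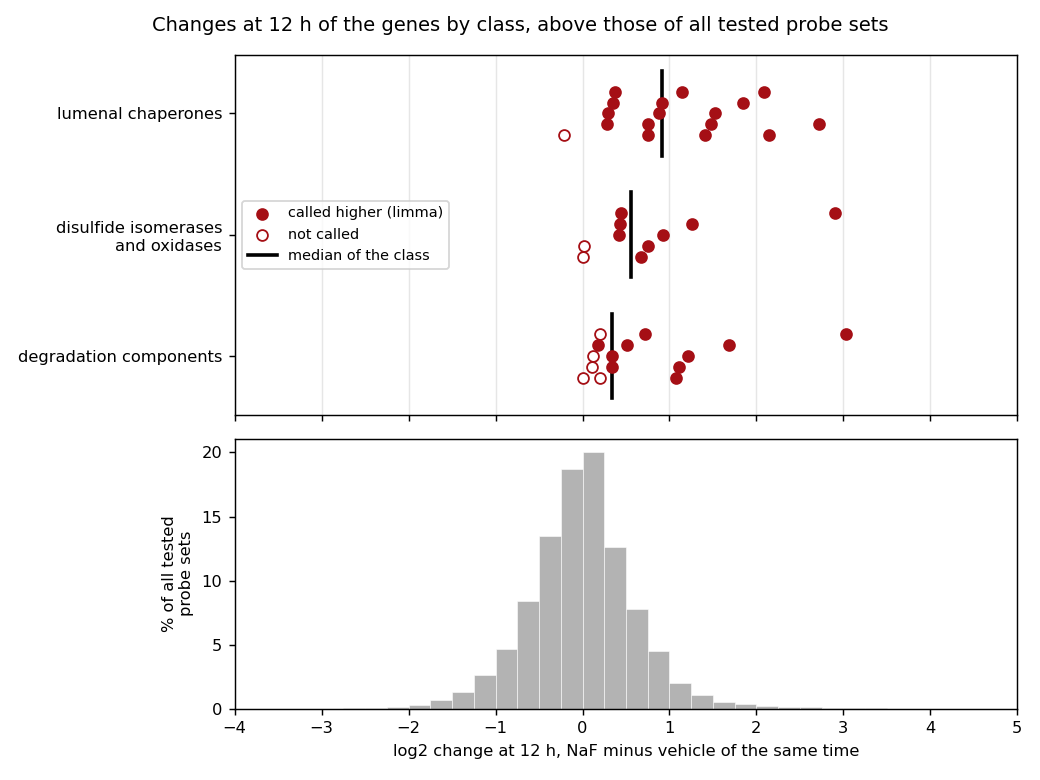
Top, change at 12 h on the log2 scale (NaF minus vehicle of the same time) of each tested gene by class, filled where limma called it higher, with the class median as a black line at 0.91, 0.56 and 0.34 from top to bottom. Bottom, the share in percent of all 13497 tested probe sets by the same change, whose median was -0.01.

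The time course of the genes was late. The median change of the 42 tested genes was -0.06 at 3 h, 0.07 at 6 h and 0.74 at 12 h, against -0.03, 0.00 and -0.01 over all tested probe sets. At 3 h, where 2.1% of all tested probe sets were called higher and 4.7% lower, 0 genes were called by limma. At an unadjusted p under 0.05, 0 were higher and 2 lower (8.97% and 14.1% of all). The 3 h NaF array was above all 4 vehicle arrays for 7 genes and below them for 16 (27.3% and 30.8% of all). At 6 h the 6 genes called higher were 14.3% of the 42, close to the 14.6% of all tested probe sets called higher, and 0 were called lower (19.9% of all). They were Herpud1, Sdf2l1, Dnajb9, Calr, Hm13 and Selenos. The 6 h NaF array was above all 4 vehicle arrays for 28 genes and below them for 5 (37.4% and 37.2% of all).

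The 6 h values rested in part on the vehicle arrays, since 19 of the 43 genes had their highest vehicle signal at 6 h. For Hspa5, for example, the limma estimate at 6 h, taken against the mean of the vehicle arrays, was 0.50, whereas its change from the 6 h vehicle array was 0.24. At 12 h, 40 of 42 genes were above all 4 vehicle arrays (95.2%, against 40.1% of all tested probe sets), the exceptions being Dnajc10 and Fkbp2, and 0 were below them (42% of all). No gene was at least 2-fold higher at 3 or 6 h (0.4% and 1.95% of all), and 15 were at 12 h (4.53%). Past 2.5-fold, the factor used in the study, were 10 of 42 genes (23.8%, against 2.17% of all). The change at 12 h was the largest of the 3 times for 37 of the 42 genes.

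The NaF array at 12 h was also tested against the NaF array at 3 h with limma. Of the 42 genes, 32 were higher at 12 h than at 3 h (76.2%, against 22.4% of all tested probe sets) and 0 lower (22% of all). Ubxn4 and Dnajc10, which were not called against vehicle at 12 h, were among the 32. When the 3 NaF arrays were compared as 1 group with the 4 vehicle arrays, 0 genes were called in either direction (3.73% of all probe sets higher and 3.79% lower). At an unadjusted p under 0.05, 3 were higher and 0 lower (13.8% and 15.8% of all). The spread in that comparison holds the change over time.

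Further genes of ER quality control, listed apart from the 43, moved in both directions. Of 58 listed, 53 were tested, with a median change of 0.17 at 12 h. Of the 53, 18 were called higher (34.0%, against 26.8% of all) and 6 lower (against 29.5% of all). The largest rises were those of the isomerase Pdia5 (1.70), the thioredoxin-domain protein Txndc11 (1.43), the ubiquitin-conjugating enzyme Ube2g2 (1.31) and the translocon partner Serp1 (1.25). The largest falls were those of the collagen chaperone Serpinh1 (-0.72), the peroxiredoxin Prdx4 (-0.64), the prolyl isomerase Fkbp9 (-0.42) and the J-domain protein Dnajb14 (-0.42). The difference between this list and the 43 genes was not tested.

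Of 8 listed regulators of the unfolded protein response, 7 had a probe set and all were tested. Ddit3 (CHOP), a transcription factor of the cell death branch, had log2 signals of 11.03, 11.99 and 12.39 at 3, 6 and 12 h of NaF, against 9.14, 9.16 and 9.02 in vehicle and 9.09 in the vehicle control. Atf4, the factor made when Eif2ak3 slows translation, had 12.48, 12.97 and 13.35 in NaF, against 11.90, 11.95 and 11.94 in vehicle and 12.02 in the vehicle control. Both were called higher at each time, at 3 h too, when 0 of the 42 genes were called.

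Atf6 was called from 6 h on, with changes of 0.51 at 6 h and 1.28 at 12 h. Its change at 3 h was 0.26, above all vehicle arrays but without a call (limma adjusted p = 0.051). The sensor Eif2ak3 and the factor Xbp1 were called at 12 h only, with changes of 0.98 and 0.89. The proteases that cleave Atf6 were lower at 12 h, Mbtps1 by a change of -0.56 and Mbtps2 of -0.43. A probe set of Xbp1 adds up its spliced and unspliced forms.

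Gapdh, a glycolytic gene used as a reference, had changes of 0.10, 0.10 and 0.01 at 3, 6 and 12 h and was not called. The vehicle arrays correlated with each other at r between 0.9961 and 0.9987 over all probe sets, and the array medians lay between 5.32 and 5.35. The 5S rRNA control probe set had 5.67 to 6.65 in the NaF arrays and 4.90 to 5.46 in the vehicle arrays. The signal of the 3′ beta-actin control exceeded that of the 5′ control by 1.77 to 2.39 in NaF and by 1.53 to 2.83 in vehicle. Of 12 epithelial markers, 10 were tested and 7 were called lower at 12 h of NaF, where 29.5% of all tested probe sets were. The 12 markers had a median signal of 10.16 to 10.49 over the NaF arrays and 10.49 to 10.59 over the vehicle arrays. Krt18 and Krt19, with vehicle means of 2.98 and 3.06, were below the minimum, as were all listed fibroblast, leukocyte and endothelial markers with a probe set. Of the muscle markers, Myh1 rose by 0.64 and Acta1 fell by 1.47. The part of these differences in the results was not tested, and on arrays of whole cultures fewer cells of a type and less RNA per cell cannot be told apart.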

How the data were processed

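Rat oral epithelial ROE2 cells were profiled on 7 arrays, 1 for each condition, with RNA pooled from 3 experiments. The authors made cRNA from it and read the scanned arrays with GeneSpring GX, for which neither the version nor the way of summarizing and normalizing is given in the sources used here. Values are the deposited log2 signals, 1 per probe set. Their medians over the 7 arrays, of 5.32 to 5.35, were taken to mean that the authors had scaled them to each other, and they were not scaled further. A platform annotation gave 1 symbol to 20832 probe sets, several to 436 and none to 9831, and only the first kind was used to name genes. Promoter sequences were from RefSeq (GRCr8), and the files name no genome build. The element of 1 promoter is not reported here.

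Probe sets with a mean log2 signal of at least 6 over the 7 arrays (13497 of them) were fitted with lmFit and eBayes of limma 3.58.1, run in R 4.3.3, and p-values were adjusted by Benjamini-Hochberg with 0.05 as the threshold. Tested were the difference of each NaF array from the vehicle mean of 4 arrays and that of NaF at 12 h from NaF at 3 h, with 3 residual and 2.6 prior degrees of freedom. The 3 NaF arrays were also compared with the 4 vehicle arrays. The median standard error at 12 h was 0.0903 on the log2 scale, and precision is limited by the number of arrays. The fits were tested on simulated data.

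Named were all 43 genes, the 4 most changed called genes in each direction of the list of other ER quality control genes, the regulators of the unfolded protein response and Gapdh. Of the marker lists, Krt18, Krt19, Myh1 and Acta1 were named after their values were seen. The genes and lists were chosen with earlier results of these data known. Alternatives were other filters, baselines and scalings, a variance trend, averaging a gene's probe sets, fold thresholds, time as a block, the methods' t-test and each array left out.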

Additional observations from a re-analysis of the deposited data

Results flagged for a closer look

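The NaF arrays of 3 h and 12 h differed by limma's test of the difference itself for 32 of the 42 tested genes, all higher at 12 h. No vehicle signal was subtracted, so that any drift of the cultures between these times is included. Values are the log2 difference of the 12 h NaF array minus the 3 h NaF array. Among the lumenal chaperones it was 2.74 for Creld2, 2.16 for Dnajb9, 2.01 for Sdf2l1, 1.64 for Hspa5, 1.60 for Hyou1, 1.41 for Manf, 1.38 for Dnajc3 and 1.31 for Hsp90b1. It was smaller for Hspa13 (0.92), Fkbp14 (0.78), Uggt1 (0.78), Dnajb11 (0.75), Calr (0.72) and Ppib (0.41). Among the disulfide enzymes it was 2.96 for Ero1b, 1.51 for Pdia4, 0.94 for Pdia6 and 0.87 for Ero1a. It was 0.52 for Txndc5, 0.44 for Erp44, 0.44 for Pdia3, 0.41 for P4hb and 0.24 for Dnajc10. Among the degradation components it was 2.76 for Herpud1, 1.91 for Sel1l, 1.56 for Edem2, 1.01 for Syvn1, 0.91 for Selenos and 0.87 for Derl2. It was 0.41 for Selenok, 0.39 for Edem1 and 0.27 for Ubxn4. With 1 array per condition no array could be set apart from replicates of its own condition.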

How the results depend on the processing

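Of the 34 genes called higher at 12 h, 30 were called under every alternative with a test, and Canx, Derl1, Ufd1 and Uggt1 lost the call under at least 1. The count at 12 h ranged from 31 to 34 with each vehicle array left out, and was 30 without a filter on dim probe sets. Against vehicle of the same time it was 15 at 2-fold and 10 at 2.5-fold (4.53% and 2.17% of all tested probe sets). Os9 and Ubxn4 gained a call at 12 h under at least 1 alternative, and the highest count was 35. At 6 h, Herpud1 and Sdf2l1 were called under every alternative with a test, whereas Calr, Dnajb9, Hm13 and Selenos were not. The count at 6 h was 2 without a filter on dim probe sets, 0 past 2-fold, 0 past 2.5-fold, and 3 to 6 with each vehicle array left out, the 3 being without the 12 h vehicle array. Its highest value was 9. Under at least 1 alternative, 8 genes gained a call at 6 h: Ero1b, Os9, Sil1, Hspa5, Creld2 and Manf as higher, Fkbp2 and Vcp as lower. Genes called lower numbered 1 at 3 h with a variance trend (Dnajc10), and 0 to 1 at 6 h with a vehicle array left out (Fkbp2 without the vehicle control, Vcp without the 3 h vehicle array). Between 12 h and 3 h of NaF, 26 to 34 genes were higher with a vehicle array left out, and 16 were at least 2-fold apart in their changes. In the 3 NaF against the 4 vehicle arrays, 0 to 6 genes were higher with an array left out, the 6 being without the 3 h NaF array, and 2 by the methods' t-test unadjusted. Shares of all tested probe sets under most of these alternatives are not given here. The counts can therefore not be set against such shares. No result reversed, and 25 changes that took the other sign were called in neither setting. The cause of these differences was not tested. The labels give no replicate numbers to pair by, and with time as a block, which pairs the NaF and vehicle arrays of 3, 6 and 12 h, the comparison of the NaF with the vehicle arrays again called 0 genes. Scaling moved the median change of all probe sets by at most 0.0493.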
